A study of Homo sapiens with 5 samples.

Results

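Oxidative phosphorylation subunit genes encode the proteins of the mitochondrial respiratory chain and of ATP synthase. The members were the protein-coding genes whose symbol follows the naming of complex I (NDUFA, NDUFB, NDUFC, NDUFS and NDUFV genes), complex II (SDHA to SDHD), complex III (UQCR genes), complex IV (COX4 to COX8 genes) or complex V (ATP5F, ATP5M and ATP5P genes), or of the mitochondrially encoded MT-ND, MT-CO, MT-ATP and MT-CYB genes. The naming matched 280 of 60651 listed genes, of which 179 were not protein-coding, most of them pseudogenes, and were left out. The remaining 101 genes comprised 88 nuclear genes and 13 genes of the mitochondrial genome. By complex, 44 belonged to complex I, 4 to complex II, 10 to complex III, 22 to complex IV and 21 to complex V. NDUFA4 and NDUFA4L2 carry complex I symbols but were placed in complex IV, to which the NDUFA4 protein belongs.

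The cells were COLO 320DM, an established human colorectal adenocarcinoma line labelled as colon, and each of the 5 libraries came from cells given a different siRNA. The USP17 siRNA group held 3 libraries (siIDT, sino4 and siSMPLT), assigned by elimination because the series names only its non-silencing controls, and the control siRNA group held 2 libraries (siL2 and siNT). USP17 is a deubiquitinating enzyme, and the comparison asks how siRNA against it alters mRNA levels. Dose and time after transfection were not known here. With 1 library per siRNA and no label of separate cultures, a p-value reflects nothing beyond the spread among the 5 libraries, part of which may be technical.

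Complexes I to IV pass electrons from NADH and succinate to oxygen, and complexes I, III and IV pump protons across the inner mitochondrial membrane while they do so. Complex V, the ATP synthase, uses the proton gradient to make ATP. All complexes but complex II combine subunits from both genomes. The mitochondrial genome is transcribed from both strands into long precursors that are cut into single mRNAs, so levels of these mRNAs differ largely through processing and stability. MT-ND6 alone among the mRNAs is read from the opposite strand. Nuclear subunit genes are transcribed singly, many from promoters that bind NRF1, a nuclear respiratory factor, or ETS-family factors.

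Reads in genes numbered 31704821 to 36276143 per library. The 30 USP17L genes of the targeted family had 0 reads in all 5 libraries, controls included. Their RSEM expected counts, which also share out reads that map to several places, summed to 0 as well. Knockdown could therefore not be read from either measure. Among colon markers, CDX2 was at 1635 to 2094 CPM (a gene's reads scaled to the library's reads in genes), KRT8 and KRT18 were at 60.1 to 76.5, and CDH17 was at 48.1 to 52.1 with USP17 siRNA and 26.6 to 27.1 in controls. EPCAM was at 1.95 to 2.78 CPM, and VIL1 and CDH1 did not exceed 0.217 and 0.175 CPM. The leukocyte gene PTPRC was at 41.6 to 50.3 CPM, with CD3E and CD14 at 0.0311 CPM or less. Among neuroendocrine markers, SYP was at 0.9615 to 2.15 CPM, CHGB at 0.758 to 1.52 and NCAM1 at 0.186 to 0.386, CHGA did not exceed 0.0631, and INSM1 had 0 reads. Reads that fell on no gene made up 7.15%, 7.05% and 7.49% of reads in siIDT, sino4 and siSMPLT and 6.58% and 6.37% in siL2 and siNT, without overlap between the groups, and the part of this difference in the results below was not tested.

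Promoters of 4 nuclear members are shown because they were the members that held the palindrome at the core of the NRF1 recognition sequence, spelled by the capitals, and because they include both members called in the comparison below, ATP5F1C and NDUFA8. RefSeq promoters (GRCh38.p14, 250 bases before to 50 bases after the annotated start, printed 5′ to 3′ along the gene) were matched for 69 of 88 nuclear members. The capitals mark those letters. ATP5F1C encodes the gamma subunit, the rotating stalk of ATP synthase (chr10:7787927-7788226, plus strand). NDUFA8 encodes an accessory subunit of complex I (chr9:122159730-122160029, minus strand). NDUFB4 encodes another accessory subunit of complex I (chr3:120596086-120596385, plus strand). SDHD encodes a membrane anchor of complex II (chr11:112086623-112086922, plus strand).
ATP5F1C: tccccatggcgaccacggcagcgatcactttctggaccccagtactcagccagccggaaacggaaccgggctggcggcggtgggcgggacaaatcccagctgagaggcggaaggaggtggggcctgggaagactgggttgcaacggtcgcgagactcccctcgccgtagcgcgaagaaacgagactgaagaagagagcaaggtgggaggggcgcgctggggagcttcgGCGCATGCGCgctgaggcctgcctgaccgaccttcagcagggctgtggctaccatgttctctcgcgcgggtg
NDUFA8: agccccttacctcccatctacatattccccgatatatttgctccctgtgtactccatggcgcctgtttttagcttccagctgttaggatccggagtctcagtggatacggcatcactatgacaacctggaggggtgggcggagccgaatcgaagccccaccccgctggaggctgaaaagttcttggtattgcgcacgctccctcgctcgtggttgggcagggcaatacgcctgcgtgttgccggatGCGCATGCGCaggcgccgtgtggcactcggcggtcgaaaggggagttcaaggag
NDUFB4: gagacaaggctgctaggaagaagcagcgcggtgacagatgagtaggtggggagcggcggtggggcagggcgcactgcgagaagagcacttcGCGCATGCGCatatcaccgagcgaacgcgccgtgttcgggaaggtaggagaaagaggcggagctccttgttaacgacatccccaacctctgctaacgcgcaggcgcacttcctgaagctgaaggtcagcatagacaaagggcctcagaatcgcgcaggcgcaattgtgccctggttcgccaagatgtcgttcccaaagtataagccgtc
SDHD: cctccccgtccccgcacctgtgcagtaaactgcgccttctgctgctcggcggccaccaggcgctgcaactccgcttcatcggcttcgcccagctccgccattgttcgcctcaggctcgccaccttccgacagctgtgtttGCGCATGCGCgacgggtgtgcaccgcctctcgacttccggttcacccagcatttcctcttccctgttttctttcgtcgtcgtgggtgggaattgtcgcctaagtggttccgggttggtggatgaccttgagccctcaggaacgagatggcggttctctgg

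The palindrome began 22 bases before the start site in ATP5F1C, 4 before it in NDUFA8, 159 before it in NDUFB4 and 110 before it in SDHD. It was present in 4 of 69 member promoters (5.80%) and in 263 of 15301 promoters of all genes (1.72%), read as the same letters on both strands. Among promoters of tested genes the shares were 6.25% and 2.35%. The ETS letters CCGGAAG, searched on both strands, were in 20 of 69 member promoters (28.99%) against 14.4% of all promoters, or 31.3% against 19.4% among tested genes. The YY1 letters ATGGCGG, also searched on both strands, were in 19 of 69 (27.5%) against 7.75%, or 29.7% against 10.4% among tested genes. CCAAT was in 34.8% of member promoters against 36.6% of all, and the E-box CACGTG in 10.1% against 8.87%. A match describes the letters and shows no binding.

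Levels spanned several orders of magnitude. In TPM (the deposited level, scaled to transcript length and library, averaged over 5 libraries), mitochondrially encoded genes ranged from 54.6 for MT-ND6 to 7852 for MT-ATP8, with a median of 3983. MT-ATP6, which shares an mRNA with MT-ATP8, was at 3388, so these gene values are not levels of separate mRNAs. The libraries were made from poly(A) RNA, and how well each mRNA was captured was not measured. The tested nuclear members had a median of 195 TPM. ATP5F1B, the catalytic beta subunit of ATP synthase, was the highest nuclear member at 1217 TPM. The highest nuclear level in complex IV was COX7C at 810 TPM, in complex III UQCRH at 664, in complex I NDUFS5 at 405 and in complex II SDHC at 222. The lowest tested members of each complex were NDUFA4L2 at 0.948 TPM in complex IV, UQCRHL at 9.79 in complex III, NDUFV3 at 29.4 in complex I, ATP5F1D at 85.3 in complex V and SDHD at 131 in complex II.

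Summed over members, mitochondrially encoded mRNAs held 5.10%, 5.50% and 5.46% of TPM in siIDT, sino4 and siSMPLT and 5.84% and 4.48% in siL2 and siNT. Nuclear members held 1.99%, 2.03% and 1.995% against 2.18% and 2.09%. In the mitochondrial sum the USP17 siRNA libraries lay between the controls, and in the nuclear sum they lay below both.

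Tissue-restricted forms were nearly or fully silent beside their widespread counterparts. COX4I1 was at 711 TPM, whereas COX4I2, its lung and hypoxia-associated form, had 0 reads in every library. COX6A1 was at 644 TPM and its heart and muscle form COX6A2 at 0 reads. COX7A2 was at 359.6 TPM and its heart and muscle form COX7A1 at 0 reads. COX6B1 was at 305 TPM and its testis form COX6B2 at 0 reads. With 0 reads, counting error alone leaves room for 3 reads, which is 0.0827 to 0.0946 CPM. COX7B2 had 4, 8 and 0 reads with USP17 siRNA and 4 and 0 in controls, COX8C at most 2 reads in any library, and ATP5MGL 1 to 13. The readthrough genes NDUFC2-KCTD14 and ATP5MF-PTCD1 had 0 reads in every library and at most 4, respectively. These 9 genes did not pass the filter on low counts. Of 101 members, 92 were tested, 79 nuclear and 13 mitochondrial.

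The read counts assign only reads that map to 1 place and to 1 gene, whereas RSEM's expected counts share out the others. For 74 members the summed expected counts were within 0.67 to 1.5 times the read counts. For 20 members, 18 nuclear and 2 mitochondrial, they were more than 1.5 times as high. Of these 20, 15 had over 5% of their exon bases inside another gene on the same strand, 9 had over 5% of their 50-base stretches in genes elsewhere, and 19 had either, by GENCODE 29. The exception was NDUFB5, with a ratio of 1.94. For COX7B2 and ATP5MGL the expected counts were under 0.67 times the reads.

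NDUFV2, a subunit that carries an iron-sulphur cluster of complex I, showed one of the widest gaps. It had 44, 19 and 19 reads with USP17 siRNA and 38 and 54 in controls, although its mean level was 209 TPM and its expected counts were 105 times its reads. NDUFA7 had 62.7 times and NDUFA13 62.0 times as many expected counts as reads, both being accessory subunits of complex I that share exon bases with an annotated neighbour. The ratio was 14.4 for SDHA, the flavoprotein of complex II, 12.5 for NDUFB8, 9.03 for NDUFA11, 6.75 for COX6A1, 5.87 for ATP5PO and 5.58 for NDUFA9. It was 4.40 for NDUFC2, 4.10 for ATP5MG, 3.04 for ATP5MF, 2.81 for UQCR11, 2.28 for COX8A, 1.85 for SDHC and 1.67 for SDHD, and 246 for ATP5MF-PTCD1. Among mitochondrial genes it was 1.91 for MT-ND2 and 1.61 for MT-CO1. Fold changes of these members from read counts rest on the part of their reads that the counting kept.

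**Figure D1:**
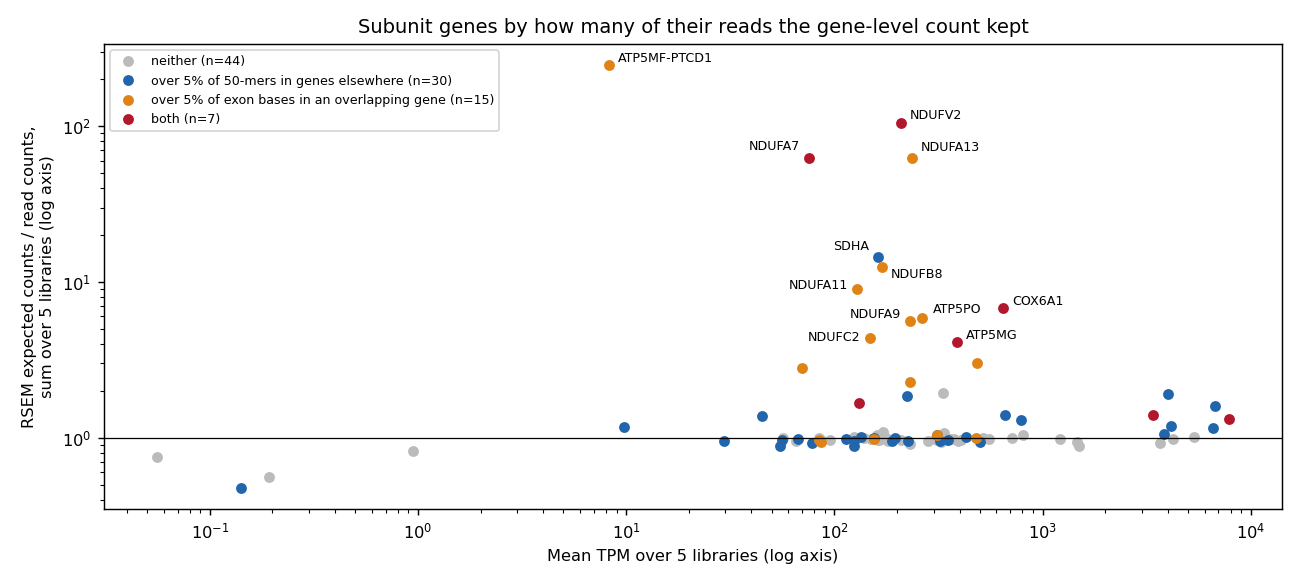
Each point is 1 of the members with at least 1 read, with its mean TPM over 5 libraries on the x axis (log axis) and the ratio of summed RSEM expected counts to summed read counts on the y axis (log axis). Most points lie near a ratio of 1, while NDUFV2, NDUFA7 and NDUFA13 lie above 60 at levels of 75.4 to 236 TPM; colours show whether over 5% of exon bases overlap another gene or over 5% of 50-base stretches occur elsewhere.

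In the comparison of 3 USP17 siRNA with 2 control libraries, 2 of 92 tested members were called lower and 0 were called higher. A gene was called when edgeR's quasi-likelihood test, adjusted by Benjamini-Hochberg over all 16341 tested genes, gave an adjusted p under 0.05. The called share of members was 2.17%, beside 10.5% of all tested genes in either direction, 4.64% called higher and 5.82% called lower. At an unadjusted p under 0.05, 22 members were lower and 3 were higher (NDUFA4, MT-ND6 and MT-CYB). The share of all tested genes at that unadjusted p was not counted, so such counts, here and below, have no background beside them. DESeq2's Wald test called MT-ND6 higher and 4 members lower (ATP5F1C, NDUFA8, ATP5MK and NDUFS6), while limma-voom called ATP5F1C and NDUFA8 lower and no member higher. Over all genes the Wald test called 1024 higher and 1318 lower, and limma-voom 749 higher and 927 lower. Members are compared below as CPM scaled by TMM, and a log2 fold change below 0 means lower with USP17 siRNA, given with its standard error (SE).

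ATP5F1C measured 242, 247 and 244 CPM in siIDT, sino4 and siSMPLT and 319.9 and 296 CPM in siL2 and siNT. All USP17 siRNA libraries were below both controls and close to each other. The means were 244 ± 2.197 (SD, n = 3) and 308 ± 16.7 CPM (SD, n = 2), with a log2 fold change of -0.33 ± 0.07 (SE) and an adjusted p of 0.0199 in edgeR. Its adjusted p became 0.0839 without siIDT, 0.113 without sino4 and 0.0577 without siSMPLT.

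NDUFA8 measured 71.3, 79.9 and 76.5 CPM with USP17 siRNA and 96.8 and 93.3 CPM in controls. The groups did not overlap. The means were 75.9 ± 4.37 (SD, n = 3) and 95.04 ± 2.48 CPM (SD, n = 2), with a log2 fold change of -0.32 ± 0.08 (SE) and an adjusted p of 0.0374 in edgeR. Its adjusted p was 0.132, 0.125 and 0.0878 without siIDT, sino4 and siSMPLT, 0.0539 without siL2 and 0.0522 with no filter on low counts.

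Both called members carry the palindrome printed above, and the other carriers were not called. NDUFB4 measured 67.2, 75.6 and 83.4 against 86.5 and 97.7 CPM (log2 fold change -0.29 ± 0.11, adjusted p = 0.114 in edgeR). SDHD measured 69.1, 64.9 and 59.9 against 72.3 and 66.4 CPM (-0.10 ± 0.09). The first did not overlap between groups and the second did. Over the 4 carriers the median log2 fold change was -0.31, beside -0.11 for the 60 tested members with a promoter lacking the palindrome. The carriers include both called members, and the letters were chosen with earlier results known, so this difference is no independent evidence about the palindrome. For the 20 tested members with the ETS letters the median was -0.11, and for the 19 with the YY1 letters -0.10, with 0 called in each. Among all 241 tested genes with the palindrome, 18 (7.47%) were called lower and 14 higher, beside 7.31% called lower of the 9998 without it, and their median log2 fold change was -0.01.

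**Figure D2:**
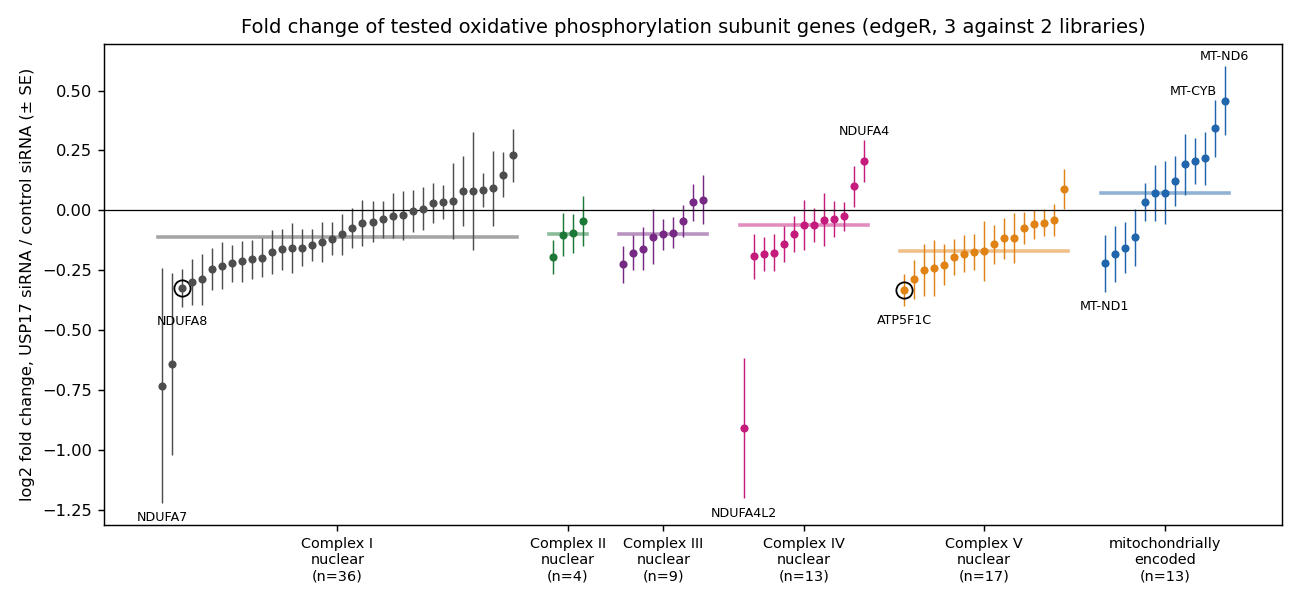
Points are log2 fold changes (USP17 siRNA over control siRNA) of the 92 tested members with SE bars, sorted within each complex; thick lines are medians and circles mark the 2 called members, ATP5F1C and NDUFA8. Most nuclear points lie below 0, while mitochondrially encoded members spread from -0.22 (MT-ND1) to 0.46 (MT-ND6).

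Among nuclear members 64 of 79 (81.0%) had a log2 fold change below 0, beside 49.3% of all tested genes. Their median was -0.11, beside 0.01 for all tested genes. Relative to the mean of the controls the median was -0.14 in siIDT, -0.09 in sino4 and -0.12 in siSMPLT. In 40 of 79 all USP17 siRNA libraries were below both controls, and in 5 all were above, beside 22.6% and 23.3% of all tested genes. The controls also differed from each other, as 65 of 79 nuclear members were lower in siNT than in siL2, with a median difference of -0.11. The nuclear median was -0.06 without siL2 and -0.16 without siNT.

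Complex I had 36 tested nuclear members, with a median log2 fold change of -0.11 and 26 below 0. NDUFA8 was the only one called by edgeR. NDUFS6, an accessory subunit that carries zinc, measured 39.0, 41.8 and 45.3 against 54.7 and 48.8 CPM (-0.30 ± 0.10, adjusted p = 0.0807 in edgeR), without overlap, and DESeq2 called it lower. Among iron-sulphur subunits, NDUFS1 had a log2 fold change of 0.03, NDUFS7 of -0.20 and NDUFS8 of -0.21, and the NADH-binding subunit NDUFV1 of -0.12. The largest positive value was 0.23 ± 0.11 for NDUFB1, which measured 31.3, 36.1 and 33.5 against 31.4 and 26.1 CPM, with overlap between the groups.

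NDUFA7 depended on the counting. In read counts it had 14, 9 and 8 reads against 27 and 10 (-0.73 ± 0.49, adjusted p = 0.365 in edgeR). In RSEM it was at 62.4, 63.3 and 72.9 TPM with USP17 siRNA and 90.6 and 87.7 in controls, without overlap. On rounded expected counts its log2 fold change was -0.45 ± 0.10 with an adjusted p of 0.0345 in edgeR, and it was called together with ATP5F1C and NDUFA8. Those 3 calls stand beside 9.31% of 16747 genes called in either direction on expected counts. NDUFA11, NDUFA13, NDUFB8 and NDUFC2 had log2 fold changes of 0.09, 0.08, 0.04 and 0.08 in reads and of -0.16, -0.08, -0.11 and -0.14 in expected counts, none of them called.

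No complex II member was called by edgeR, limma-voom or DESeq2, and 1 of 4 had an unadjusted p under 0.05. That was SDHB, the iron-sulphur subunit, at 85.9, 84.7 and 82.7 against 97.6 and 95.5 CPM (-0.19 ± 0.07, adjusted p = 0.112 in edgeR). The catalytic SDHA had a log2 fold change of -0.04 ± 0.11 and the anchor SDHC of -0.10 ± 0.08.

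No nuclear complex III member was called by any of the same 3 tests, and 2 of 9 had an unadjusted p under 0.05. UQCRFS1, the Rieske iron-sulphur protein, measured 59.6, 62.3 and 63.3 against 74.4 and 69.9 CPM (-0.22 ± 0.08, adjusted p = 0.0967 in edgeR). UQCR10 measured 71.0, 76.1 and 73.3 against 83.7 and 82.3 CPM (-0.18 ± 0.07). Both were without overlap between the groups. The core proteins UQCRC1 and UQCRC2 had log2 fold changes of -0.09 and -0.10, and UQCRHL, a close copy of UQCRH, of 0.04.

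No nuclear complex IV member was called by edgeR, limma-voom or DESeq2, and 4 of 13 had an unadjusted p under 0.05. NDUFA4 measured 124, 139 and 132 against 106 and 122 CPM (0.20 ± 0.09, adjusted p = 0.168 in edgeR). Its paralogue NDUFA4L2, a hypoxia-responsive gene, had 17, 12 and 19 reads against 30 and 35 (-0.91 ± 0.29, adjusted p = 0.0833 in edgeR). Neither overlapped between the groups, and they had opposite signs. COX5A was at -0.18 ± 0.07 and COX7B at -0.18 ± 0.08. COX4I1 measured 318, 323 and 331 against 330.3 and 329 CPM (-0.03 ± 0.06), the smallest standard error among the tested nuclear members of the complex.

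Complex V had 16 of 17 tested nuclear members below 0 and a median log2 fold change of -0.17, the lowest of the 5 complexes, although complexes were not tested against each other. Besides ATP5F1C, ATP5MK, a small membrane subunit linked to dimer formation, measured 56.3, 59.5 and 61.7 against 75.3 and 69.2 CPM (-0.29 ± 0.08, adjusted p = 0.0583 in edgeR). The groups did not overlap, and DESeq2 called it lower. ATP5F1A and ATP5F1B, the alpha and beta subunits that surround the gamma stalk, had log2 fold changes of -0.06 ± 0.06 and -0.05 ± 0.06. The 3 genes that encode the same mature membrane ring protein, ATP5MC1, ATP5MC2 and ATP5MC3, were at -0.17, -0.04 and -0.20. ATP5MG had the largest positive value among its nuclear members, 0.09 ± 0.08. Nuclear subunits of the enzyme therefore had log2 fold changes from -0.33 to 0.09. The mitochondrially encoded MT-ATP6 was at 0.19 ± 0.13 and MT-ATP8 at 0.22 ± 0.11 (adjusted p = 0.356 and 0.234 in edgeR). In both the groups overlapped.

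**Figure D3:**
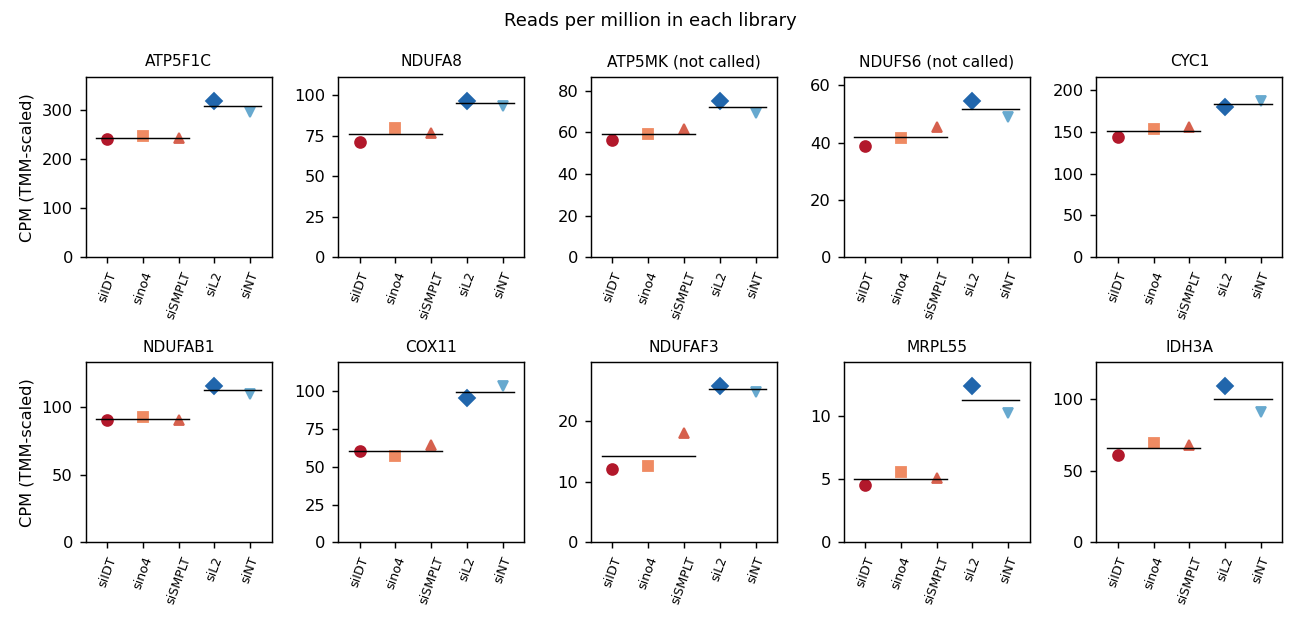
CPM in each library (points) with group means (lines) for the 2 members called by edgeR, for ATP5MK and NDUFS6, which edgeR did not call and DESeq2 called lower, and for 6 genes of related lists called by edgeR; each y axis starts at 0. In every panel the 3 USP17 siRNA libraries lie below both controls, but the genes were chosen among those called lower in these same libraries.

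Of the 13 mitochondrially encoded members 0 were called by edgeR or limma-voom, 2 had an unadjusted p under 0.05, and DESeq2 called MT-ND6 alone. Their median log2 fold change was 0.07. MT-CYB, the haem-carrying cytochrome b of complex III, measured 1150, 1304 and 1222 against 1109 and 825 CPM (0.34 ± 0.12, adjusted p = 0.1001 in edgeR). MT-ND1, a core subunit of complex I, measured 1811, 2105 and 2149 against 2679 and 2036 CPM (-0.22 ± 0.12). The first was higher in all USP17 siRNA libraries than in both controls, and in the second the groups overlapped.

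MT-ND6 had 611, 720 and 708 reads against 601 and 463 (0.46 ± 0.15, adjusted p = 0.0798 in edgeR). Counted without regard to strand, the gene had 13289, 15699 and 15316 reads against 17109 and 13506, with a log2 fold change of 0.04, so reads of the opposite strand far outnumbered its own. Across all genes the reads of the own strand were 18.7 to 19.9 times those of the opposite strand. Whether opposite-strand reads entered the MT-ND6 count was not tested.

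The controls differed more from each other (median absolute log2 difference 0.40) than the groups did (0.18). All 13 mitochondrially encoded members were lower in siNT than in siL2, by log2 differences from -0.21 in MT-CO1 to -0.53 in MT-ND2, with a median of -0.40. Among groups, 3 of 13 did not overlap (MT-ND3, MT-ND6 and MT-CYB, all higher, beside 23.3% of all tested genes) and 10 overlapped. Without siL2, 7 were called higher (MT-ATP6, MT-ATP8, MT-CO3, MT-CYB, MT-ND2, MT-ND3 and MT-ND6) and their median over the 13 was 0.31. Without siNT, 4 were called lower (MT-CO2, MT-ND1, MT-ND4 and MT-ND4L) and the median was -0.07. With 1 control left, these fits take the spread from the USP17 siRNA libraries and assume that the lone control varies like them, and they called 1005 of all genes higher without siL2 and 1249 lower without siNT. The direction of the whole set therefore rested on which control was used.

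The makeup of the mitochondrially encoded reads, which does not depend on their total, separated the groups. As a share of all reads on the 13 genes, 11 did not overlap between the groups, 4 lower and 7 higher with USP17 siRNA. In CPM, a different measure, 3 of the 13 did not overlap, and 22.6% of all tested genes were lower and 23.3% higher without overlap. Shares within other gene sets were not counted, so the 11 have no like background. All 13 fell on the same side, or overlapped, in RSEM expected counts too. Shares within 1 total are not independent, since a higher share of some genes lowers that of others. Each of the 11 had an exact two-sided permutation p of 0.2, the smallest that 3 against 2 libraries allow, so no share could pass 0.05.

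MT-CYB held 5.74%, 5.83% and 5.53% of these reads in siIDT, sino4 and siSMPLT and 4.54% and 4.40% in siL2 and siNT. MT-ND4, a proton-pumping subunit of complex I, held 16.4%, 16.8% and 16.6% against 19.0% and 18.4%. MT-ND1 held 9.04%, 9.41% and 9.73% against 10.96% and 10.85%. The first was higher and the others were lower in all libraries with USP17 siRNA.

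MT-ND4L, which shares a bicistronic mRNA with MT-ND4, was lower as well, at 3.58%, 3.58% and 3.52% against 3.94% and 3.95%. MT-CO2, a copper-binding subunit of complex IV, was at 10.8%, 10.5% and 10.4% against 11.7% and 10.98%. MT-ATP8 and MT-ATP6, which also share an mRNA, were higher, at 2.61%, 2.67% and 2.57% against 2.23% and 2.25%, and at 4.77%, 4.95% and 4.79% against 4.31% and 4.09%. In both bicistronic pairs the partners thus differed in the same direction. Since they lie on the same mRNA, and 22.2% of MT-ATP8 exon bases lie within MT-ATP6, the shares of partners are not separate observations.

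MT-CO3 was at 7.92%, 7.98% and 7.99% against 7.23% and 7.36%. MT-ND3 was at 3.83%, 3.35% and 3.42% against 3.003% and 3.09%. MT-ND5 was at 9.08%, 9.36% and 9.48% against 8.87% and 8.74%. These complex IV and complex I mRNAs were higher in share without overlap, as was MT-ND6 at 0.0932%, 0.0996% and 0.1002% against 0.0717% and 0.0698%. MT-ND2 (6.76%, 6.32% and 6.23% against 6.35% and 5.72%) and MT-CO1 (19.3%, 19.2% and 19.7% against 17.9% and 20.1%) overlapped. The 7 mitochondrial complex I mRNAs therefore included 3 with a lower share, 3 with a higher share and 1 that overlapped.

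The ratio of MT-CYB to MT-ND4 reads, chosen after the shares were seen, was 0.3499, 0.348 and 0.334 with USP17 siRNA and 0.239 in both controls. The 95% exact counting intervals were 0.346 to 0.354, 0.344 to 0.352 and 0.3304 to 0.338 with USP17 siRNA and 0.2365 to 0.242 and 0.236 to 0.242 in controls, which cover counting error only and treat reads as independent molecules. The mean ratio was 0.344 ± 0.00857 (SD, n = 3) against 0.239 in both controls, a 1.44-fold difference (0.52 on the log2 scale). Expected counts gave 0.333, 0.331 and 0.319 against 0.227 in both controls, again 1.44-fold. The log2 difference stayed between 0.51 and 0.54 when each library was left out. The exact two-sided permutation p was 0.2, the smallest possible.

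**Figure D4:**
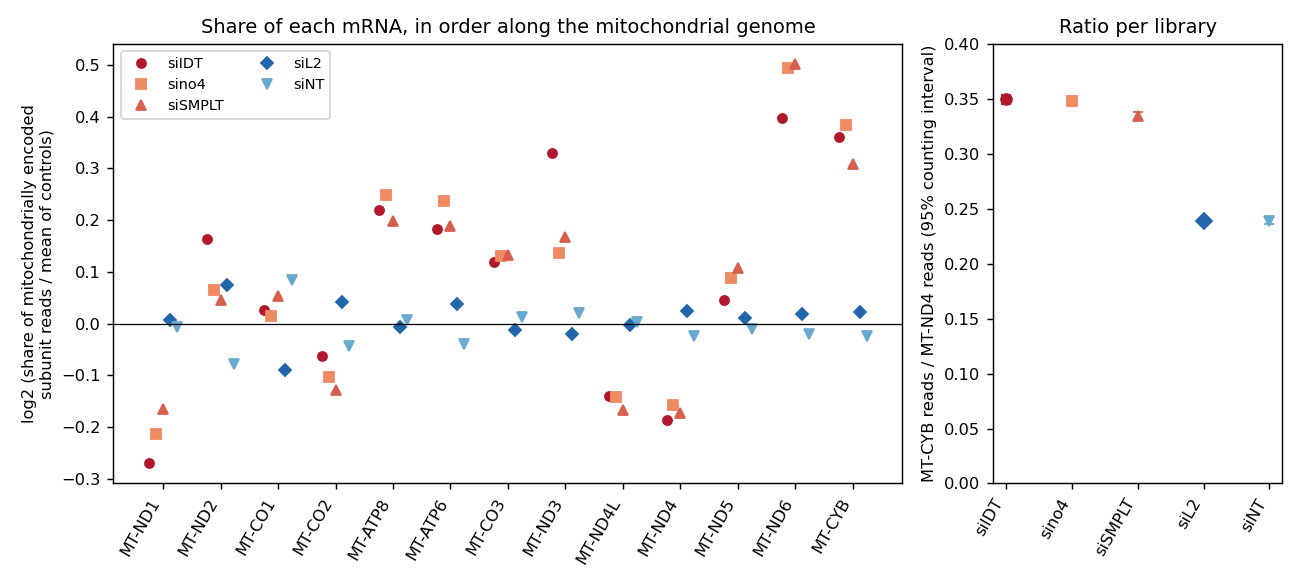
Left, the share of each mitochondrially encoded mRNA among reads on the 13 genes, as log2 of its ratio to the control mean, in genome order, for each library. Right, MT-CYB reads over MT-ND4 reads per library with 95% exact counting intervals. On the left the controls lie around 0 because their mean is the reference, and the groups overlap in MT-ND2 and MT-CO1. On the right the controls lie at 0.239 and the USP17 siRNA libraries at 0.334 to 0.3499.

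Summed raw reads of the members, scaled only to reads in genes, did not separate the groups. The nuclear sum in TPM did, at 1.99%, 2.03% and 1.995% with USP17 siRNA against 2.18% and 2.09% in controls. Nuclear members summed to 8716, 8882 and 8664 CPM of raw reads with USP17 siRNA and 9479 and 8793 in controls (log2 difference -0.06, exact two-sided permutation p = 0.4). Mitochondrially encoded members summed to 20313, 22439 and 22296 against 24415 and 18285 (0.04, exact permutation p = 0.8). The mitochondrial to nuclear ratio was 2.33, 2.53 and 2.57 against 2.58 and 2.08 (0.10 on the log2 scale, exact permutation p = 0.8). In each of the 3 measures the groups overlapped, and siNT differed from siL2 by -0.11, -0.42 and -0.31 on the log2 scale. In bulk samples a lower level per cell and fewer cells with that level cannot be told apart.

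Other genes of the pathway, 213 in 11 lists with 211 tested, included 24 called lower (11.4%) and 0 called higher in edgeR, beside 5.82% of all tested genes called lower and 4.64% called higher. No list was tested against other genes, and the same 5.82% stands beside each count of lower calls that follows. At an unadjusted p under 0.05, 61 were lower and 4 were higher, with no count over all genes beside them. In either direction limma-voom called 24 and DESeq2 39. Over all genes limma-voom called 749 higher and 927 lower, and DESeq2 1024 higher and 1318 lower. Subunits and carriers that the symbol rule does not take in were called lower in 2 of 5. CYC1, cytochrome c1 of complex III, measured 143, 153 and 156 against 179 and 187 CPM (-0.28 ± 0.07, adjusted p = 0.0432 in edgeR). NDUFAB1, the mitochondrial acyl carrier protein and a complex I subunit, measured 90.9, 93.2 and 90.9 against 116 and 109.6 CPM (-0.30 ± 0.07, adjusted p = 0.0338 in edgeR). Neither overlapped between the groups. CYCS, cytochrome c itself, was at -0.24 (adjusted p = 0.0854 in edgeR), DMAC2L at 0.26 and the ATP synthase inhibitor ATP5IF1 at -0.03.

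Assembly factors of complex I were called lower by edgeR in 3 of 20 (15%, beside 5.82% of all tested genes). DESeq2 called 6 in either direction, and over all genes it called 1024 higher and 1318 lower. Those counts, not the 5.82%, stand beside each DESeq2 count below. NDUFAF3 measured 12.04, 12.6 and 17.9 against 25.7 and 24.8 CPM (-0.83 ± 0.16, adjusted p = 0.0195 in edgeR). DMAC2 was at -0.65 ± 0.14 and NDUFAF2 at -0.37 ± 0.09. Of 25 complex IV assembly factors edgeR called only COX11, a copper chaperone, and DESeq2 called 2. COX11 measured 59.9, 57.0 and 64.3 against 95.4 and 103 CPM (-0.72 ± 0.08, adjusted p = 0.0047 in edgeR). For complexes II, III and V none of 4, 9 and 5 assembly factors was called by edgeR, with 1, 3 and 0 at an unadjusted p under 0.05. DESeq2 called 1 of the complex III factors.

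The mitochondrial ribosome, which translates the 13 mitochondrially encoded mRNAs, had 13 of 77 tested genes called lower by edgeR (16.9%, beside 5.82% of all tested genes) and a median log2 fold change of -0.14. MRPL55 measured 4.52, 5.57 and 5.09 against 12.4 and 10.2 CPM (-1.16 ± 0.14, adjusted p = 0.0051 in edgeR). MRPS10 was at -0.44, MRPL4 at -0.37 and MRPS9 at -0.45, and all were called. Of 29 factors for mitochondrial DNA transcription and RNA handling, 2 were called lower. TBRG4, a FASTK-family RNA-binding protein, was at -0.38 ± 0.07 (adjusted p = 0.0185 in edgeR), and PNPT1, a mitochondrial RNA-degrading enzyme, at -0.25 ± 0.07 (adjusted p = 0.0474 in edgeR).

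In the tricarboxylic acid cycle, which supplies NADH and succinate to the chain, 3 of 14 genes were called lower by edgeR (21.4%, beside 5.82% of all tested genes). IDH3A, the catalytic subunit of NAD-dependent isocitrate dehydrogenase, measured 60.9, 69.2 and 67.7 against 108.7 and 90.5 CPM (-0.60 ± 0.10, adjusted p = 0.0130 in edgeR). IDH3B was at -0.45 and OGDH at -0.42. Of 10 tested biogenesis regulators and 13 coenzyme Q synthesis genes edgeR, limma-voom and DESeq2 called none, with 0 and 1 at an unadjusted p under 0.05. The calls in the pathway lists numbered 2 without siIDT, 2 without sino4 and 11 without siSMPLT. Calls over all genes fell as well, to 135 higher and 214 lower without siIDT and 50 and 80 without sino4. Without siSMPLT they were 425 higher and 616 lower.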

How the data were processed

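Poly(A) RNA of COLO 320DM cells was extracted with TRIzol and RNeasy and made into libraries with the KAPA RNA HyperPrep kit, per the labels. Per the submitters' processing notes, the authors used bcl2fastq 2.20, STAR 2.7.1a, RSEM 1.3.2 and GRCh38. The annotation release was not given in the sources used here. Those STAR tables that the authors deposited hold whole-number counts per gene. The deposited RSEM tables hold expected counts and TPM. The own-strand count column was used. Rows that name no gene (unmapped, multi-mapping, ambiguous or no feature, 22.8% to 24.4% of reads) were left out of library sizes.

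Symbols came from the gene name tables (60481 of 60651 identifiers), and biotypes and exon overlaps from GENCODE 29, which lists 58405. In R 4.3.3 with edgeR 4.0.16, genes passed filterByExpr (minimum count 10, total 15), libraries were scaled by TMM and groups compared by the two-sided quasi-likelihood F test, with Benjamini-Hochberg adjustment at 0.05. The SE is the fold change divided by the root of F. On simulated counts of 16341 genes for this comparison, 6% of genes changed 1.25-fold, 54% changed 1.5-fold, 76% changed 2-fold and 96% changed 4-fold were recovered, and 10.8% of 130 calls were false. Single values were compared by exact permutation with scipy 1.17.1. Overlap of groups was read from log2 CPM with a prior count of 2. Alternatives were edgeR's version of the DESeq2 size factors, DESeq2 1.42.0 (Wald test), limma-voom (limma 3.58.1), other filters, rounded expected counts, summed TPM, unstranded counts, other library sizes, an adjusted p of 0.1 and leaving out each library.

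Named were the called members, the 13 mitochondrially encoded members, the members with the highest and lowest TPM and the extreme fold changes in each complex, those that failed the filter, those whose expected counts were over 1.5 or under 0.67 times the reads, CYC1, CYCS, NDUFAB1, ATP5IF1 and DMAC2L, and up to 4 called genes per pathway list. Other members are named for their roles or values and were chosen after their values were seen. The members, lists and promoter letters were chosen with earlier results of these data known.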

Additional observations from a re-analysis of the deposited data

How the results depend on the processing

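No paired analysis was possible because the labels carry no replicate numbers and each siRNA has 1 library. Calls of members were the most sensitive to the libraries. The members called lower numbered 6 at an adjusted p of 0.1, 4 with DESeq2's Wald test and 1 with no filter on low counts, and 0 to 12 when a library was left out (0 without siIDT, sino4 or siSMPLT, 1 without siL2, 12 without siNT). Those called higher numbered 1 at an adjusted p of 0.1, 1 with the Wald test and 0 to 7 with a library left out. Over all genes, calls at an adjusted p of 0.1 were 1460 higher and 1614 lower, and with a library left out 50 to 1384 higher and 80 to 1425 lower. Other pathway genes called numbered 39 with the Wald test, 14 with no filter, and 2 to 44 with a library left out. The median log2 fold change with a library left out ranged from -0.163 to -0.0583 for nuclear and from -0.0652 to 0.31 for mitochondrially encoded members. The summed nuclear reads differed by -0.0923 as TPM and by -0.0928 with TMM-scaled sizes, and by -0.115 to -0.0065 with a library left out. Leaving out a library gave -0.17 to 0.24 for the summed mitochondrial reads and -0.0578 to 0.25 for the ratio of the sums. The cause of these shifts was not tested. The MT-CYB to MT-ND4 ratio, whose alternatives were chosen after seeing the data, moved by less than 1 SD in all of them. Among 63 named genes, 18 changed sign under some alternative, none while called.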
